A study of Mus musculus with 74 samples.

Results

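Skeletal muscle myosin carries a pair of light chains on the neck of each head, an essential one and a regulatory one, and fast and slow fibres use different genes for both. Calcium-calmodulin switches on myosin light chain kinase, which phosphorylates the regulatory chain and strengthens contraction, and myosin phosphatase removes that phosphate through a catalytic subunit held on myosin by a targeting subunit. The 10 genes described here were chosen by name and matched by symbol in the tables: the fast chains Myl1 and Mylpf, the slow chains Myl3 and Myl2, the embryonic and atrial chain Myl4, the essential chain Myl6b of slow and non-muscle cells, the skeletal kinase Mylk2, the related kinase Mylk4, and the phosphatase targeting subunits Ppp1r12a and Ppp1r12b. They are 10 of 24940 genes in the poly(A) RNA tables. These genes and the gene lists used below were chosen with earlier results of these data known. Shares called among them therefore describe the lists only.

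The study profiled quadriceps of C57BL/6 mice with and without BCL6, a zinc-finger protein that represses transcription, and 57 of its 74 samples have values here. Poly(A) RNA came from 5 knockouts (AEC-Esr Cre (+):Bcl6 fl/fl, tamoxifen), 4 Cre-negative controls (Bcl6 fl/fl, tamoxifen) and 4 oil controls (AEC-Esr Cre (+):Bcl6 fl/fl, oil in place of tamoxifen). RiboTag mice express a tagged ribosomal protein where Cre is active, so that ribosomes of those cells can be pulled down. Ribosome footprints and mRNA were sequenced from 4 RiboTag knockouts (AEC-Esr Cre (+):Bcl6 fl/fl; RiboTag (+), tamoxifen) and 4 RiboTag controls (AEC-Esr Cre (+); RiboTag (+), tamoxifen), which carry Cre and RiboTag but no floxed Bcl6. Nascent RNA came from 5 samples of wild-type muscle treated with FX1, a small molecule that blocks BCL6, and 5 treated with DMSO, its solvent. Histone H3 acetylated at lysine 27 (H3K27ac), which marks active promoters and enhancers, was mapped in an acute series, a chronic series and a series of animals that also gave poly(A) RNA. Each of the 3 holds 3 knockouts and 3 Cre-negative animals, and BCL6 binding was mapped in 1 wild-type library. The promoter behind the AEC-Esr Cre is not named in the labels, and the labels list the tag antibody for RiboTag mRNA too, so whole-muscle RNA and pulled-down RNA cannot be told apart there.

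Poly(A) libraries held 6.7e+06 to 7.6e+06 tags and nascent libraries 1.4e+07 to 3.3e+07. Tags counted in genes ran from 6499561 to 13045854 in RiboTag mRNA and from 3248807 to 4370468 in footprints. Bcl6 itself had a log2 change of -0.23 (SE 0.057, limma adjusted p = 0.013) against Cre-negative and -0.31 (SE 0.062, limma adjusted p = 0.0027) against oil muscle, and of 0.14 (SE 0.26, edgeR adjusted p = 0.84) in RiboTag mRNA and -1.12 (SE 0.20, edgeR adjusted p = 0.0020) in footprints. All 6 skeletal muscle markers were tested in every RNA comparison, against 2 to 4 of 8 cardiac markers.

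Among the promoter windows of the group, 1 held both a whole BCL6 peak and a match to the BCL6 motif. Ppp1r12b, which targets the phosphatase to myosin in striated muscle, has an annotated start inside the gene (NR_015606), and the RefSeq promoter of that start, chr1:134803793-134804092 on the minus strand of GRCm38.p6, contains a whole BCL6 peak of 221 bp. It is printed 5′ to 3′ from 250 bases before to 50 after the start, with the match to the BCL6 motif TTCCTNGAA in capitals.
Ppp1r12b internal promoter: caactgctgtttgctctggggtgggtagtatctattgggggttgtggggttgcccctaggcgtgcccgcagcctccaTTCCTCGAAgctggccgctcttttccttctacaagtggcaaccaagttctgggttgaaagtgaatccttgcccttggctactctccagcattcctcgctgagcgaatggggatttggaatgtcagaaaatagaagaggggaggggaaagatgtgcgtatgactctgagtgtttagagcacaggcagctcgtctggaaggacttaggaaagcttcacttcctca
Both strands were searched (reverse complement TTCNAGGAA). The match begins 173 bases before the start and lies inside the peak. Promoters of this length held the motif in 1.59% of cases (522 of 32851), and those with a whole BCL6 peak in 12.4% (23 of 186). None of the other 10 promoter windows matched to 9 of the genes held these letters. Among these is the other Ppp1r12b window, chr1:134955891-134956190, which also overlapped no BCL6 peak. Mylk2 had no entry in the table.

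BCL6 peaks carried the name of 6 of the 10 genes, 23 of 10925 peaks in all, and the score of each is the authors' own. Mylk4 had 7 peaks, Myl1 6, Ppp1r12b 4, Mylk2 3, Myl4 2 and Mylpf 1, whereas Myl2, Myl3, Myl6b and Ppp1r12a had 0. Of these 23 peaks, 4 lay within 1000 bp of a start, against 1738 of all 10925. The highest score, 309.9, belonged to an intron of Mylk4 (chr13:32775854-32776074, mm10), 8000 bp inside the gene, and ranked 53 among all peaks. The Mylpf peak at chr7:127209014-127209234, 225 bp past a start (NM_001347655), scored 133.5 and ranked 380. It lies outside the Mylpf promoter window searched for the motif, chr7:127211358-127211657. The Myl1 peak 518 bp before its start (chr1:66945464-66945684) scored 73.5 and ranked 1065. The Ppp1r12b peak in the promoter above (chr1:134803841-134804061, 109 bp before the start) scored 36.8 and ranked 2940, and the Myl4 peak 275 bp past a start (chr11:104550828-104551048) scored 19.6 and ranked 6890. The windows searched for the motif at Myl1 and Myl4 overlapped no BCL6 peak either. The median score of all peaks was 23.3, and 17 of the 23 scored at or above it. The remaining 18 were intronic, exonic or intergenic, with scores of 14.7 to 50.2. The peaks rest on 1 library with no replicate.

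Levels between genes were compared per length, as CPM per kilobase of exon, where CPM is the count scaled to 1 common effective library size. In RiboTag control mRNA Mylpf stood highest at 1063 ± 258 and Myl1 next at 949 ± 155 (SD, n = 4 each), and their ranges overlapped. Mylk2 followed at 417 ± 74.5, apart from its neighbours, and Myl3, Mylk4 and Myl2 lay between 226 and 257 with overlapping ranges (n = 4 each). Myl6b and Myl4 averaged 17.6 ± 4.69 and 16.6 ± 8.88, and Ppp1r12a and Ppp1r12b came last at 8.15 ± 1.87 and 6.03 ± 1.49 (n = 4 each). The fast light chains were thus the highest of the 10, and the 2 phosphatase subunits the lowest. In control footprints Mylpf averaged 2310 ± 185 and Myl1 1052 ± 61.5, and Ppp1r12b stood seventh at 120 ± 10.97 (n = 4 each). The footprint-to-mRNA ratio of Ppp1r12b averaged 26.0 ± 5.54 in RiboTag knockouts and 19.8 ± 5.56 in RiboTag controls (n = 4 each). That of controls ranked 9 among 11042 genes, whose median was 1.02, and the other 9 genes had control ratios of 0.558 to 2.75. RiboTag tags were counted over gene bodies, 190 kb long for Ppp1r12b, and where its tags fell was not tested. The levels divide these gene-body counts by exon length. The counts also keep at most 5 tags per position, and the effect of this on levels and ratios of dense genes was not tested.

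**Figure D1:**
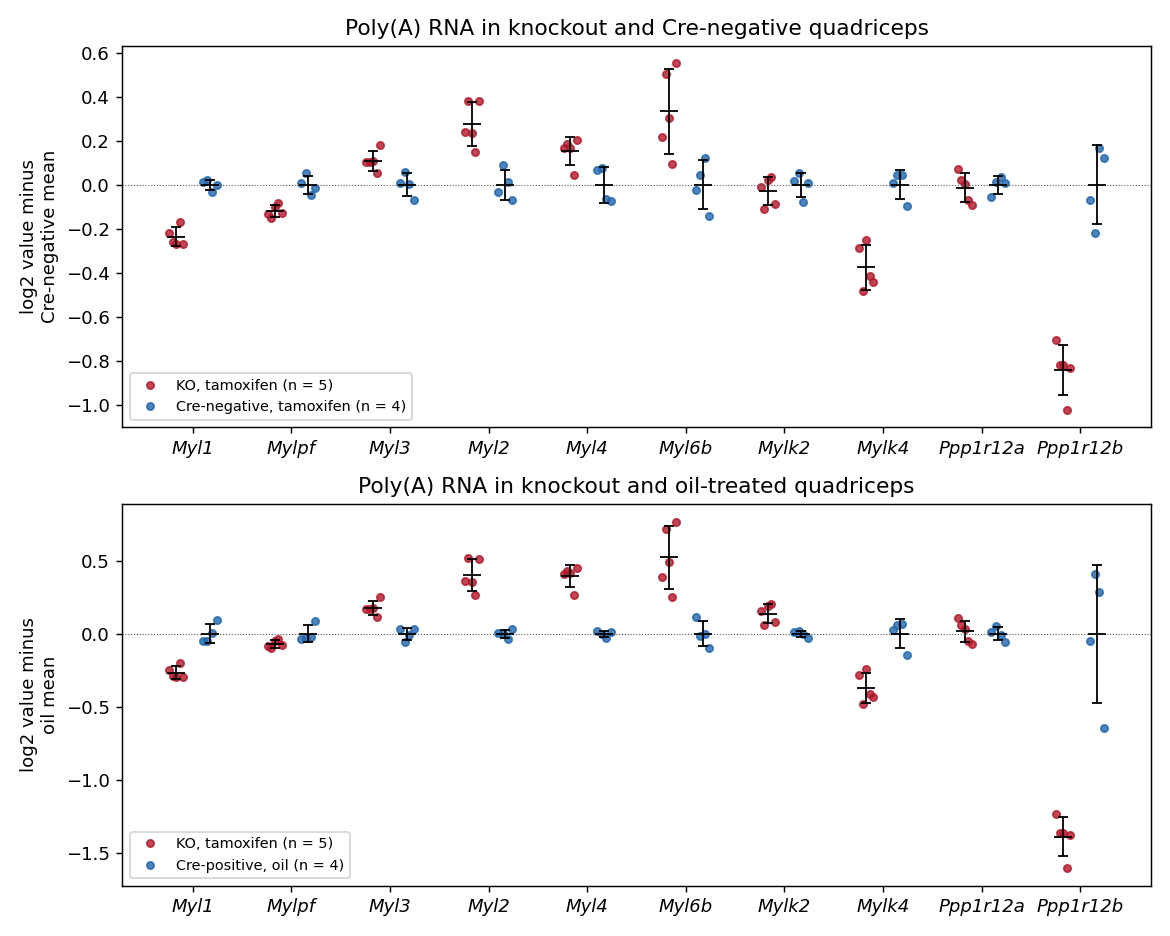
Poly(A) RNA of the 10 genes in each library as the log2 value minus the control mean, with knockouts left of Cre-negative (upper) or oil controls (lower); points are libraries, bars the mean and SD. The 5 knockouts of Myl1, Mylk4 and Ppp1r12b lie below every control in both panels. Those of Mylpf do so too, but its highest knockout (10.924) and lowest oil control (10.925) almost meet, and it was not called against oil controls.

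In poly(A) RNA the fast chain Myl1, the kinase Mylk4 and the phosphatase subunit Ppp1r12b were lower in knockout muscle than in either control, and the slow chains Myl2 and Myl3, Myl4 and Myl6b were higher. Against Cre-negative controls 8 of the 10 genes were called (limma, Benjamini-Hochberg adjusted p below 0.05), 4 higher and 4 lower, where 15.9% of 13101 genes were called, 6.25% higher and 9.66% lower. Against oil controls 8 were called, 5 higher and 3 lower, where 24.3% of 13132 genes were called, 10.3% higher and 14% lower. Groups did not overlap for 5 of the 10 genes against Cre-negative controls and for 9 against oil controls. Over all genes this held for 2041 of 13101 and 2840 of 13132. Both comparisons use the same 5 knockouts, so that they are not independent of each other. The median change of the 10 was -0.02 against Cre-negative and 0.08 against oil, beside 0.00 over all genes in each. These values come from whole tissue, where fewer cells of a type and less RNA per cell cannot be told apart.

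Ppp1r12b changed most. Its log2 values were 7.78, 7.67, 7.67, 7.47 and 7.65 in knockouts, against 8.42, 8.27, 8.66 and 8.61 in Cre-negative controls. Every knockout was below every control, and the log2 change was -0.84 (SE 0.075, limma adjusted p = 1.1e-05). On the table with oil controls the values were 7.90, 7.77, 7.77, 7.53 and 7.76 in knockouts, against 9.09, 9.54, 9.42 and 8.49 in oil controls. The groups again did not overlap, the oil controls spread over more than 1 log2 unit, and the log2 change was -1.39 (SE 0.16, limma adjusted p = 6.0e-05). Ppp1r12a, the subunit of most other tissues, averaged 8.47 ± 0.067 in knockouts (SD, n = 5) and 8.48 ± 0.040 in Cre-negative controls (n = 4). Its log2 changes of -0.01 (SE 0.034) and 0.02 (SE 0.038) against Cre-negative and oil controls did not pass the test (limma adjusted p = 0.84 and 0.80).

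Among the kinases, Mylk4 had log2 values of 11.52, 11.33, 11.56, 11.39 and 11.37 in knockouts, against 11.82, 11.85, 11.85 and 11.71 in Cre-negative controls. The groups did not overlap, and the log2 change was -0.38 (SE 0.047, limma adjusted p = 1.5e-04) against Cre-negative and -0.37 (SE 0.054, adjusted p = 3.1e-04) against oil controls. Mylk2, which phosphorylates the regulatory chain of fast fibres, had values of 11.73 to 11.88 in knockouts, against 11.76 to 11.89 in Cre-negative controls, and its change of -0.03 did not pass (limma adjusted p = 0.64). On the table with oil controls it had 11.73 to 11.88 in knockouts, against 11.65 to 11.70 in oil controls, 0.14 higher (SE 0.031, limma adjusted p = 0.0073) with no overlap. With quantile normalization its change against Cre-negative became 0.08 (limma adjusted p = 0.042), so that its direction depends on the scaling.

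The fast chains were lower. Myl1 had log2 values of 11.14, 11.09, 11.08, 11.18 and 11.08 in knockouts, against 11.36, 11.37, 11.32 and 11.35 in Cre-negative controls. All knockouts were below all controls, with log2 changes of -0.24 (SE 0.026, limma adjusted p = 6.0e-05) against Cre-negative and -0.27 (SE 0.033, adjusted p = 8.5e-05) against oil controls. Mylpf, its regulatory partner, had values of 10.84 to 10.91 in knockouts and 10.95 to 11.05 in Cre-negative controls. Its log2 change was -0.12 (limma adjusted p = 0.0061), and -0.07 (adjusted p = 0.10) against oil controls. With quantile normalization the change of Mylpf was -0.04 (adjusted p = 0.24) against Cre-negative and 0.03 (adjusted p = 0.55) against oil controls.

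The slow chains were higher. Myl2 had log2 values of 9.17, 9.31, 9.16, 9.08 and 9.31 in knockouts, against 8.90, 9.02, 8.94 and 8.86 in Cre-negative controls. All 5 knockouts were above all 4 controls, with log2 changes of 0.28 (SE 0.048, limma adjusted p = 0.0016) against Cre-negative and 0.40 (SE 0.047, adjusted p = 5.3e-05) against oil controls. Myl6b had log2 values of 7.75 to 8.20 in knockouts and 7.51 to 7.78 in Cre-negative controls, a change of 0.33 with overlapping groups (limma adjusted p = 0.015), and of 0.52 against oil controls (adjusted p = 0.0011). Myl3 changed by 0.11 (limma adjusted p = 0.028) and 0.17 (adjusted p = 0.0010) in the same order of controls, and Myl4 by 0.15 (adjusted p = 0.022) and 0.39 (adjusted p = 8.3e-06). Myl3 and Myl4 overlapped between knockouts and Cre-negative controls, and the calls were lost when 1 library was left out. The adjusted p of Myl3 was above the threshold without knockouts P1895, P1896 or P1911 or without controls P1906 or P1909 (0.050 to 0.082), and that of Myl4 without knockouts P1896 or P1911 or without controls P1906 or P1909 (0.051 to 0.067). Without a filter on low values the calls of Myl3, Myl4 and Myl6b against Cre-negative controls were lost (limma adjusted p = 0.097, 0.12 and 0.13).

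Some fibre-type markers differed in the same poly(A) libraries, though most did not pass against Cre-negative controls. Of 7 other slow-fibre genes, 2 were called higher against Cre-negative and 6 against oil controls, with 0 lower, beside 6.25% and 10.3% of all genes. Their mean log2 value was 10.06 to 10.25 in knockouts, against 9.86 to 10.07 in Cre-negative controls. Of 9 fast-fibre genes, 4 and 3 were called lower and 0 higher, beside 9.66% and 14% of all genes called lower. Their mean log2 values were 12.38 to 12.47 in knockouts and 12.46 to 12.54 in Cre-negative controls. Of 5 tested markers of embryonic or regenerating muscle, 1 was called higher against Cre-negative and 3 against oil controls, with 0 lower. The part of fibre type or of these markers in the light chain values was not tested.

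**Figure D2:**
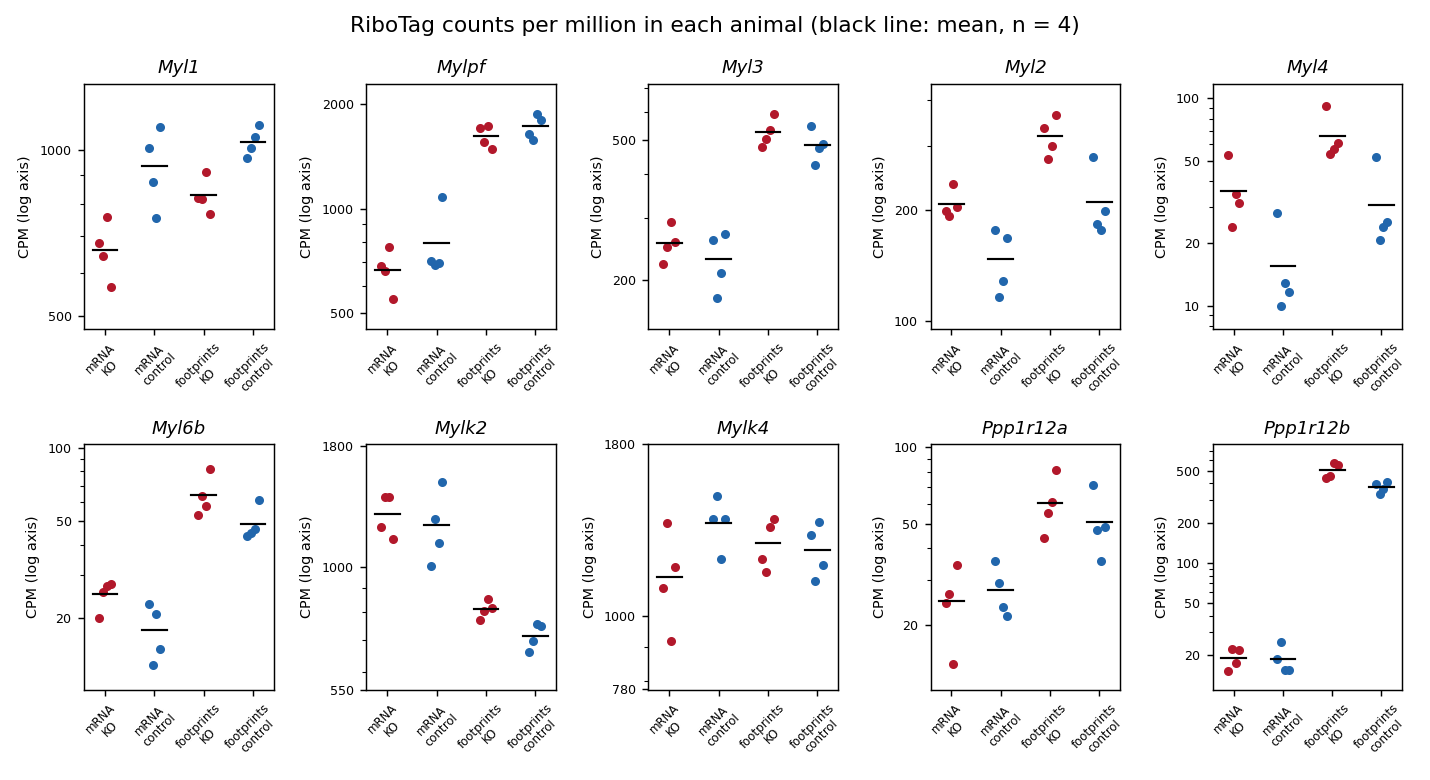
RiboTag mRNA and footprints of the 10 genes in CPM on a log axis, with 4 knockouts left of 4 controls for each; points are animals and black lines means. For Ppp1r12b the 4 knockout footprint values, 440 to 572 CPM, lie above the controls at 331 to 406 CPM, and mRNA values overlap.

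In ribosome footprints Myl2, Myl4 and Ppp1r12b were higher and Myl1 was lower in RiboTag knockouts, whereas 0 of the 10 genes were called in RiboTag mRNA. The 4 called footprint genes (3 higher, 1 lower; edgeR quasi-likelihood, Benjamini-Hochberg) compare with 26.6% of 12979 genes called, 10.9% higher and 15.7% lower. In mRNA 4.21% of 14476 genes were called, and 4 of the 10 genes had an unadjusted p below 0.05. The share of all genes at that unadjusted threshold was not counted. DESeq2 called 2 (Myl1 and Myl2) and edgeR without a filter 3 (Myl1, Myl2 and Myl4). The median change of the 10 was 0.22 in footprints and 0.05 in mRNA, beside 0.00 and 0.01 over all genes. Groups did not overlap for 4 of the 10 in footprints and 1 in mRNA, beside 3249 of 12979 and 1630 of 14476 genes.

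Ppp1r12b had 440, 455, 572 and 546 CPM of footprints in knockouts, against 397, 331, 364 and 406 CPM in controls. No knockout overlapped a control, and the log2 change was 0.43 (SE 0.10, edgeR adjusted p = 0.0093). In mRNA it had 15.2, 22.4, 17.4 and 21.8 CPM in knockouts, against 18.6, 25.3, 15.4 and 15.6 CPM in controls. Those values overlapped throughout (log2 change 0.03, SE 0.19, edgeR adjusted p = 0.96). The poly(A) comparisons above, in other animals and with counts in exons, gave a lower level, and RiboTag mRNA did not. Whether these differ was not tested. Ppp1r12a had 43.8 to 81.6 CPM of footprints in knockouts and 35.8 to 71.1 in controls, and was not called (edgeR adjusted p = 0.39).

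Myl1 had 820, 815, 913 and 766 CPM of footprints in knockouts, against 970, 1009, 1058 and 1109 CPM in controls. All knockouts were lower, with a log2 change of -0.32 (SE 0.080, edgeR adjusted p = 0.010). Its mRNA was 565 to 757 CPM in knockouts and 755 to 1103 CPM in controls, a change of -0.50 (SE 0.13, edgeR adjusted p = 0.057). Without the animals of the shallowest and deepest mRNA libraries, an alternative added after seeing the data, the footprint change of Myl1 was -0.26 (edgeR adjusted p = 0.051). The counts kept at most 5 tags per position, and Myl1 and Mylpf were the densest of the 10 genes. Myl1 held 6.40 to 10.98 tags per exon base in mRNA and Mylpf 8.63 to 10.2, ranks 15 and 18 of 24940 genes. Mylk2 (3.07 to 5.40), Myl2 (1.53 to 4.34), Myl3 (1.80 to 3.99) and Mylk4 (1.48 to 2.91) also exceeded 1 tag per exon base. Between the deepest and the shallowest mRNA library, 2.01-fold apart in counted tags, Myl1 counts differed by 1.19-fold and Mylpf counts by 1.18-fold. Mylk2 counts differed by 1.76-fold, Mylk4 by 1.97-fold, Myl3 by 2.21-fold and Myl2 by 2.83-fold.

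Myl2 had 336, 276, 300 and 364 CPM of footprints in knockouts, against 280, 184, 177 and 200 CPM in controls. Control RPF_11673 overlapped the lowest knockout, and the log2 change was 0.60 (SE 0.14, edgeR adjusted p = 0.0073). Its mRNA of 193 to 236 CPM in knockouts did not overlap the 116 to 177 CPM in controls, with a change of 0.50 (SE 0.13, edgeR adjusted p = 0.059). Myl4 had 91.8, 54.0, 57.1 and 61.1 CPM of footprints in knockouts, against 52.1, 20.6, 24.05 and 25.3 CPM in controls. The groups did not overlap, and the log2 change was 1.10 (SE 0.26, edgeR adjusted p = 0.0087). Its mRNA change was 1.19 (SE 0.32, edgeR adjusted p = 0.062), and 1.64 (adjusted p = 0.0030) without RNA_11673.

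The other genes did not pass in footprints. Mylk2 had 770 to 856 CPM in knockouts and 660 to 756 CPM in controls without overlap (log2 change 0.18, edgeR adjusted p = 0.090). Mylk4 overlapped, with 1162 to 1393 CPM in knockouts and 1128 to 1378 CPM in controls (log2 change 0.03, adjusted p = 0.81), and its mRNA change was -0.27 (SE 0.13, edgeR adjusted p = 0.32). Myl6b had 53.1 to 81.9 CPM in knockouts and 43.3 to 60.8 CPM in controls (log2 change 0.40, edgeR adjusted p = 0.074), and the changes of Myl3 and Mylpf were 0.13 and -0.09. Myl6b passed without control RPF_11745 (log2 change 0.52, edgeR adjusted p = 0.022).

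Markers of other cells differed in the same footprint libraries. All 5 endothelial, 5 fibroblast and 5 macrophage markers were called lower in knockout footprints, with medians of -1.40, -0.90 and -1.27, and 0 of these 15 in RiboTag mRNA. The 5 endothelial markers summed to 117 to 287 CPM of footprints in knockouts, against 314 to 576 CPM in controls. For fibroblasts the sums were 1677 to 2707 CPM in knockouts and 2624 to 4529 CPM in controls, and for macrophages 153 to 363 CPM in knockouts and 462 to 624 CPM in controls. Slow-fibre markers were called higher for 3 of 7 in mRNA and for 3 of 7 in footprints, and fast-fibre markers lower for 4 of 9 in footprints. Of 5 tested markers of embryonic or regenerating muscle, 1 was called higher in mRNA and 1 in footprints, with 0 lower. Over all genes 4.21% were called in mRNA in either direction, and in footprints 10.9% were called higher and 15.7% lower. The part of these markers in the footprint values of the 10 genes was not tested.

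Footprints per mRNA, tested by whether the knockout effect differed between footprint and mRNA libraries, gave a call for 0 of the 10 genes, beside 9.91% of 14935 genes. With an unadjusted p below 0.05 there was 1, Mylk4 (log2 change 0.35, SE 0.16, edgeR adjusted p = 0.18). For Ppp1r12b the log2 footprints per mRNA were 4.80, 4.27, 5.02 and 4.601 in knockouts, against 4.27, 3.61, 4.49 and 4.64 in controls. These overlapped, with a change of 0.44 (SE 0.21, edgeR adjusted p = 0.19), and Myl1 changed by 0.22 (SE 0.16, adjusted p = 0.39). The authors' deposited table calls both, Myl1 at a log2 change of 0.864 (adjusted p = 0.0067) and Ppp1r12b at 0.840 (adjusted p = 0.013), among 3090 of 13632 genes.

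**Figure D3:**
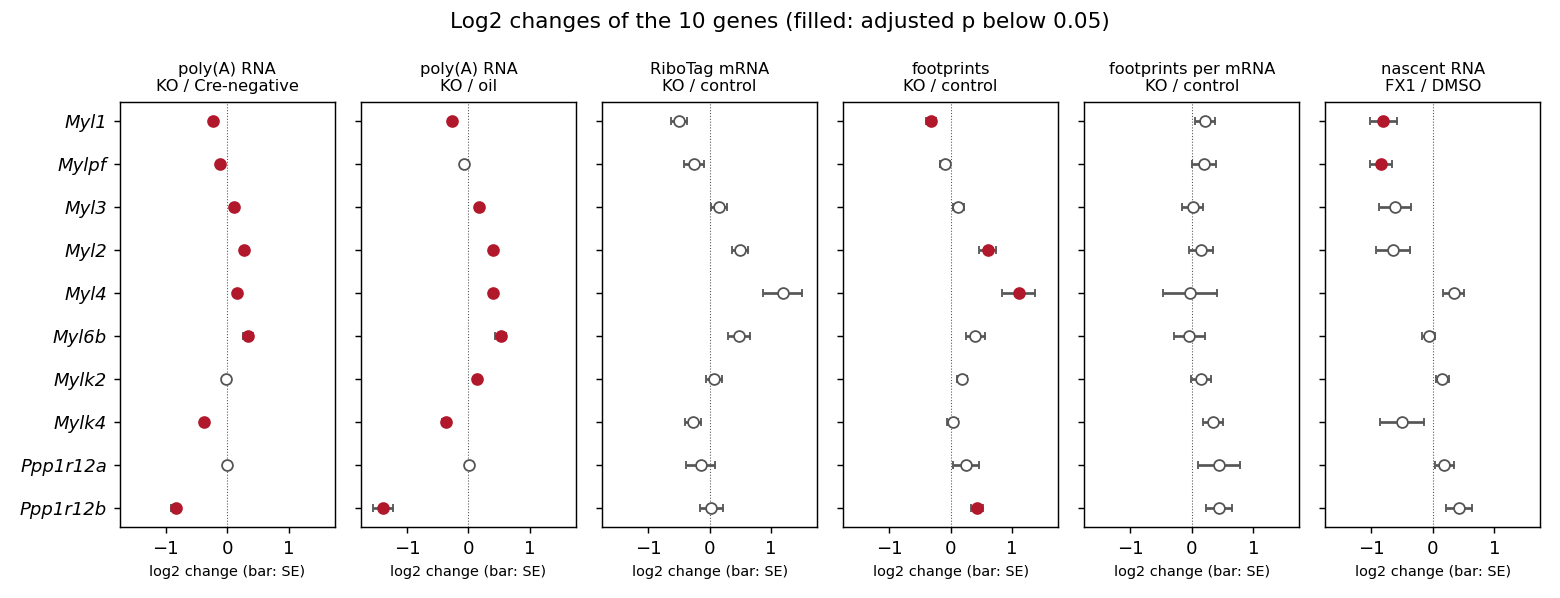
Log2 changes of the 10 genes with SE, by comparison and on 1 axis scale, where each title gives the treated or knockout group over its control and filled points passed the test. For counts the SE is derived from the edgeR F statistic. Ppp1r12b is at -0.84 and -1.39 in poly(A) RNA and at 0.43 in footprints. Poly(A) and nascent changes are differences of deposited log2 values and the others come from counts. Sizes are therefore not comparable between these kinds of data.

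In nascent RNA the fast chains Myl1 and Mylpf were lower with FX1, the only 2 of the 10 called, where 22.1% of 14809 genes were called and 10.8% called lower. An unadjusted p below 0.05 was found for 4, and the share of all genes at that threshold was not counted. Groups did not overlap for 2 of the 10, beside 2552 of 14809 genes. Myl1 had log2 values of 14.22, 14.69, 14.51, 13.91 and 13.83 with FX1, against 14.92, 14.80, 15.07, 15.60 and 14.82 with DMSO. All FX1 samples were below all DMSO samples, and the log2 change was -0.81 (SE 0.22, limma adjusted p = 0.022). Mylpf had 10.73, 11.55, 11.51, 11.76 and 11.60 with FX1, against 12.11, 12.34, 12.39, 12.25 and 12.28 with DMSO, again without overlap. Its log2 change was -0.84 (SE 0.17, limma adjusted p = 0.0059). Myl1 was not called without DMSO 3 (limma adjusted p = 0.051).

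The slow chains did not pass. Myl3 changed by -0.62 (SE 0.26, limma adjusted p = 0.12) and Myl2 by -0.65 (SE 0.28, adjusted p = 0.12), with overlapping groups. Without DMSO 3, whose Myl2 value of 5.75 is the lowest of that group, Myl2 changed by -0.93 (limma adjusted p = 0.0098), and the authors' deposited table gives Myl2 an adjusted p of 0.036. Mylk4 had log2 values of 15.45, 15.87, 17.28, 15.88 and 15.52 with FX1, against 17.17, 16.12, 16.36, 16.23 and 16.64 with DMSO. FX1 3 stood above every DMSO sample and the other 4 below them, so that the change was -0.50 (limma adjusted p = 0.33), and -0.82 (adjusted p = 0.030) without FX1 3. Ppp1r12b had 15.03, 15.46, 15.32, 14.55 and 14.48 with FX1, against 14.81, 14.40, 14.53, 14.47 and 14.54 with DMSO (log2 change 0.42, limma adjusted p = 0.18). FX1 samples 1 to 3, with 1.4e+07 to 1.6e+07 tags, were the higher ones, and FX1 4 and 5 held 2.5e+07 and 2.6e+07 tags. With the library total as a covariate, added after seeing the data, the change of Ppp1r12b was 0.25 (limma adjusted p = 0.46), and Myl1 and Mylpf were still called. Myl4, Myl6b, Mylk2 and Ppp1r12a had changes of -0.07 to 0.34 and were not called. The labels do not say that these samples are separate animals, so the p-values measure the spread between samples.

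Of the fixed fibre markers, 3 of 9 fast genes and 2 of 7 slow genes were called lower with FX1, and 4 of 6 skeletal muscle genes. Of 5 tested markers of embryonic or regenerating muscle, 2 were called lower. Over all genes 10.8% were called lower. The part of these markers in the light chain values was not tested.

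**Figure D4:**
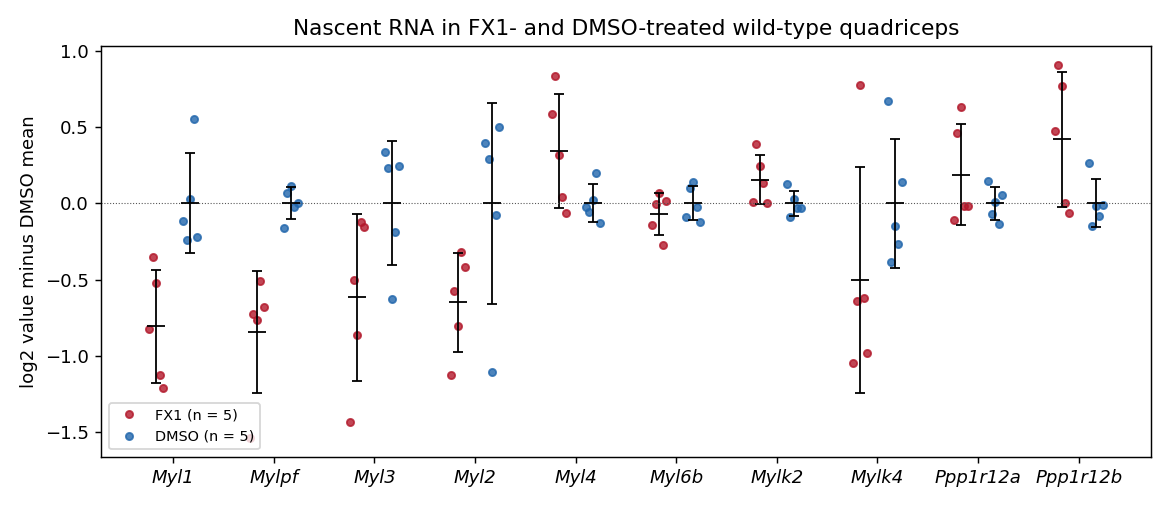
Nascent RNA of the 10 genes in each sample as the log2 value minus the DMSO mean, with 5 FX1 samples left of 5 DMSO samples; points are samples, bars the mean and SD. The FX1 samples of Myl1 and Mylpf lie below all DMSO samples, and FX1 3 of Mylk4 lies above the rest at 17.28.

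H3K27ac around BCL6 peaks was higher in knockouts in 2 of 7 windows at Mylk4 and in both at Myl4, and the share of windows called at the genes was near that of all windows. In 1000 bp windows on BCL6 peaks, 4 of 22 tested windows at the genes were called (limma on log2 of signal plus 1), all higher, where 18.1% of 9080 windows were called and 16.7% called higher. The median change was 0.15 at the genes and 0.14 over all windows. Groups did not overlap in 6 of the 22 windows, beside 3115 of all 9080. The window on the strongest Mylk4 peak (chr13:32775464-32776464) had 231, 349 and 278 tags per 10000000 in knockouts, against 178, 172 and 116 in Cre-negative controls. The groups did not overlap, and the log2 change was 0.88 (SE 0.17, limma adjusted p = 0.0019). Another Mylk4 window, 19237 bp into the gene, rose by 0.41 (adjusted p = 0.035). The other 5 Mylk4 windows were not called, with log2 changes of -0.88, -0.43, -0.43, -0.23 and 0.16 (limma adjusted p of 0.16 or more).

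At Myl4, the window at chr11:104571867-104572867 had 28.9, 47.1 and 25.5 tags per 10000000 in knockouts, against 22.7, 14.5 and 13.4 in Cre-negative controls (log2 change 0.95, limma adjusted p = 0.023). The promoter window at chr11:104550438-104551438 had 94.4, 91.1 and 87.5 in knockouts, against 68.0, 70.6 and 61.5 in controls (log2 change 0.44, limma adjusted p = 0.034). In both the knockouts were above the controls. The window at the Ppp1r12b internal start had 217, 236 and 227 in knockouts, against 182, 199 and 178 in controls, with no overlap but an adjusted p of 0.059 (limma log2 change 0.28). Mylpf and Myl1 promoter windows overlapped between groups, with changes of 0.14 and -0.01. With quantile normalization the median of all windows was -0.06, higher calls fell to 880 with 518 lower, against 1517 and 131, and the strongest Mylk4 window was the only 1 of the 4 still called (log2 change 0.69, limma adjusted p = 0.0014). That window passed with any 1 library left out (adjusted p up to 0.014). The other 3 did not: Mylk4 at 19237 bp was lost without knockouts P1900 or P1907 or controls P1899 or P1906 (adjusted p up to 0.15), the Myl4 intron window without knockout P1900 or controls P1899 or P1906 (up to 0.13), and the Myl4 promoter window without any of the 6 (up to 0.10).

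In merged H3K27ac regions, 0 of 84 tested regions at the genes were called in the acute series (limma), where 0.0979% of 71480 regions were called. In the chronic series 0 of 86 were called, where 0.178% of 67918 were. An unadjusted p below 0.05 was found for 11 acute and 6 chronic regions, and the share of all regions at that threshold was not counted. Groups did not overlap for 13 acute and 10 chronic regions, beside 9238 of 71480 and 8529 of 67918. The nearest to a call was an intergenic region past the end of Myl1, chr1:66922514-66923260. It had 46.5, 49.4 and 42.8 tags per 10000000 in acute knockouts, against 22.9, 21.4 and 15.1 in controls. All knockouts were higher (log2 change 1.199, SE 0.26, limma adjusted p = 0.052), and it passed without Ctr_6345 (0.039), with a pseudocount of 5 (0.026) and with quantile normalization (0.045). In chronic animals it had 69.8, 57.4 and 48.1 in knockouts, against 33.6, 26.9 and 43.9 in controls, with the groups apart and a change of 0.74 (limma adjusted p = 0.49). The Myl4 region at chr11:104571762-104572262, which overlaps the called window, had 14.8, 18.0 and 25.03 in acute knockouts, against 9.34, 8.11 and 3.60 in controls (log2 change 1.39, limma adjusted p = 0.24). A Mylk4 intron region at chr13:32747481-32747981 was lower, with 26.96, 21.9 and 23.6 in acute knockouts against 43.3, 41.1 and 45.4 in controls (log2 change -0.82, adjusted p = 0.29). The start of Ppp1r12a had 155, 109 and 169 in acute knockouts, against 169, 171 and 171 in controls, and was not called (limma adjusted p = 0.63).

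**Figure D5:**
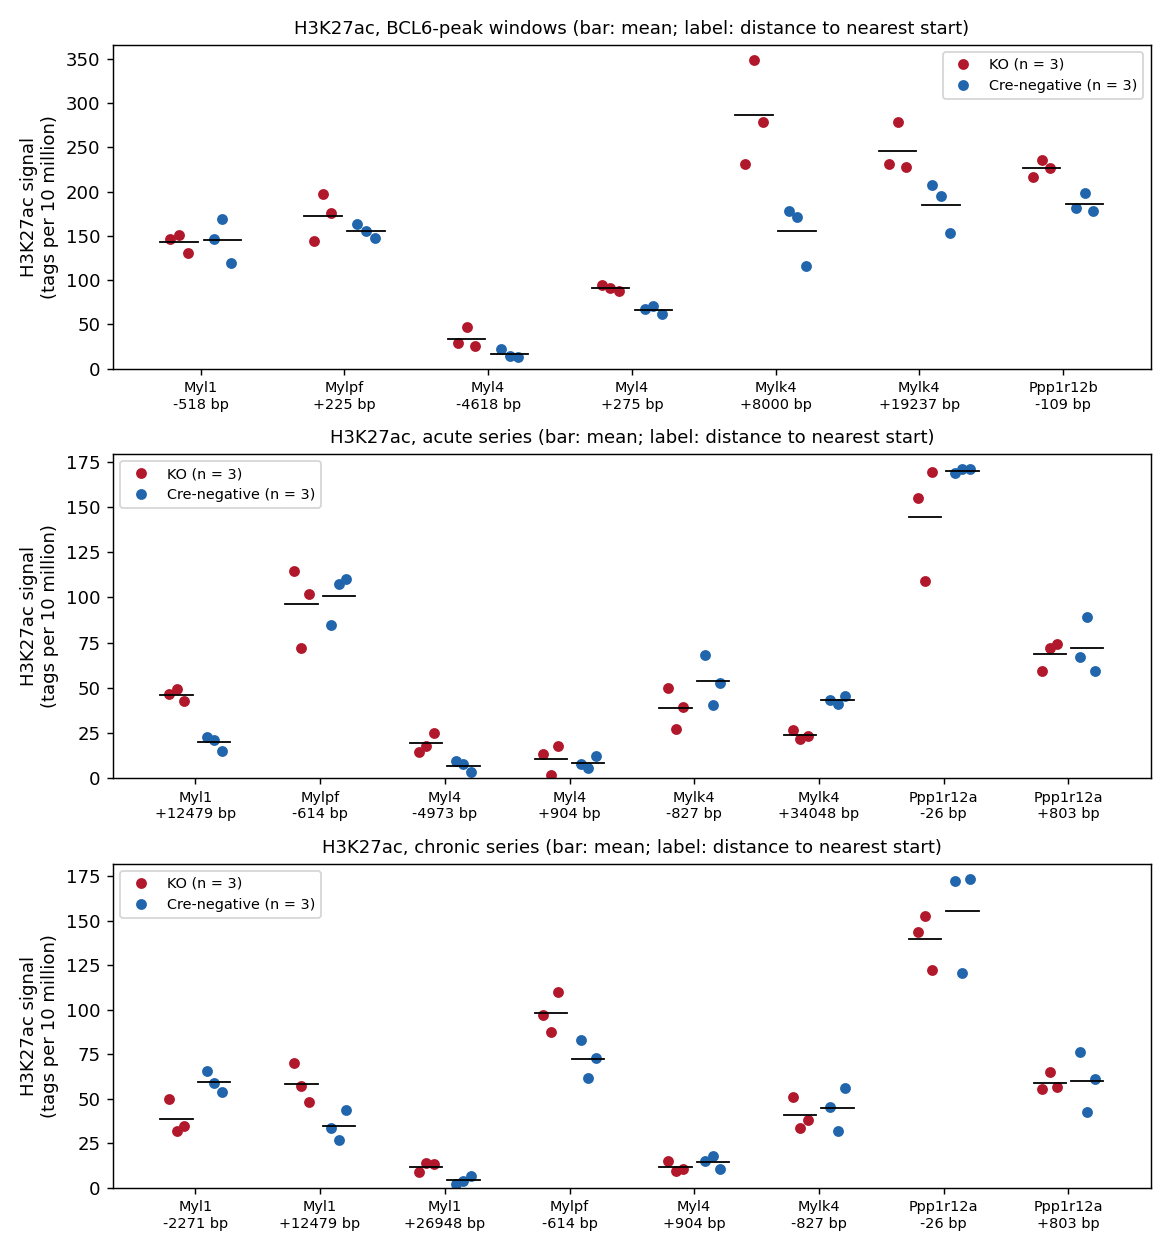
H3K27ac signal, in tags per 10000000, in 3 knockouts left of 3 Cre-negative controls at the named windows and regions, labelled by gene and distance to the nearest start; bars are means. The strongest Mylk4 window averages 286 in knockouts and 155 in controls.

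Of the 24 other genes of the pathway, 6 of 22 tested were called against Cre-negative controls, beside 15.9% of all genes. Higher were Myl12a, a non-muscle regulatory chain (log2 change 0.14, limma adjusted p = 0.0041), and Dapk3, a kinase of the regulatory chain (0.08, adjusted p = 0.036). Lower were Prkg1, the cGMP-dependent kinase (-0.37, limma adjusted p = 4.5e-04), Rock2, a kinase that inhibits the phosphatase (-0.16, adjusted p = 0.0031), Myl6 (-0.09, adjusted p = 0.024) and the phosphatase inhibitor Ppp1r14c (-0.08, adjusted p = 0.049). Against oil controls 6 of 22 were called, beside 24.3% of all genes, 2 higher (Myl12a and Dapk3) and 4 lower (Prkg1, Rock2, Ppp1r14c and the calmodulin gene Calm3). In RiboTag mRNA 0 of 22 were called, beside 4.21% of all genes (edgeR, with 6 at an unadjusted p below 0.05). In footprints 4 of 23 were called, beside 26.6% of all genes. Dapk3 had 112 to 133 CPM in knockouts and 68.2 to 84.0 CPM in controls (log2 change 0.69, edgeR adjusted p = 9.7e-04). Mylk, the kinase of smooth muscle, had 35.9 to 54.2 CPM in knockouts and 79.6 to 136 CPM in controls (log2 change -1.16, edgeR adjusted p = 9.7e-04), and Rock1 and Ppp1r14a fell by 0.87 and 1.11 on the log2 scale. Smooth muscle markers, a list that holds Mylk itself, were called lower for 3 of 9 in the same footprints, beside 15.7% of all genes. Their part in the Mylk value was not tested. Per mRNA, Mylk was lower (-0.91, edgeR adjusted p = 0.013) and Dapk3 higher (0.48, adjusted p = 0.042), 2 of 24 beside 9.91% of all genes. With FX1, 3 of 21 were called, beside 22.1% of all genes, all lower, namely Calm2, Calm3 and Mylk3, with log2 changes of -0.92, -0.68 and -0.90 (limma adjusted p = 0.0044, 0.0018 and 0.0030).

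Patterns across libraries were compared as deviations from group means over the 13 poly(A) and 8 RiboTag mRNA libraries, among 13005 genes. Myl2 was most like Tnnt1 (Pearson r = 0.89), Mhrt (0.86) and Myh7 (0.84). Mhrt is antisense to Myh7, and counts that use both strands cannot tell their reads apart. Myl1 was most like Tpm1, Il4i1 and Sparc (r of 0.81, 0.80 and 0.80), and Ppp1r12b like Mtr, Uhrf1bp1 and Usp24 (0.94, 0.94 and 0.92). Among the 10 genes the highest r was 0.79 for Myl2 and Myl3 and 0.76 for Myl1 and Mylpf, and the lowest -0.80 for Mylpf and Ppp1r12b. Among the poly(A) groups Ppp1r12b spread most in oil controls (SD 0.47, n = 4). Oil control P1910 held the highest Mylpf value of that group (11.05) and the lowest Ppp1r12b value (8.49). The weight of single libraries in r was not tested. The points share library and depth, and r is given as a description over 21 libraries.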

How the data were processed

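Per the file headers, the authors' poly(A) table gives log2 values from HOMER counts over exons on both strands, and the nascent table log2 values from counts over gene bodies; the transform has no name there. The deposited RiboTag counts cover gene bodies and keep up to 5 tags per position, with strand not stated, so reads of overlapping genes cannot be separated. The deposited H3K27ac signal is tags per region, each library scaled to 10000000 tags, and the BCL6 list has the authors' peak score. The authors' deposited tables also give a log2 fold change and p-value per gene. The submitters' processing notes name STAR 2.4.0, Bowtie 1.2, HOMER, DESeq2 1.14.1 and mm10, without roles.

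Counts were tested here by the quasi-likelihood test of edgeR 4.0.16 after TMM and filterByExpr (minimum count 10), footprints per mRNA as a genotype-by-library-type interaction over 16 libraries, log2 values with limma 3.58.1 (trended variance, group mean of at least 4), and signal with limma on log2(signal + 1) at a mean of at least 5. The SE given with edgeR is the absolute log2 change divided by the square root of its F statistic, so it is approximate near a change of zero. A feature was called when its Benjamini-Hochberg p, adjusted over its comparison, was below 0.05. The share of all features at an unadjusted p below 0.05 was not counted, so counts at that threshold have no background here. Fits were run on simulated data with known changes. The acute and chronic H3K27ac fits were held to no recovery threshold there. Recovery is not given here for any fit, so the absence of a call in any comparison does not exclude a change. Both library types of an animal share its number, and their deviations correlated at -0.06 to 0.41. Planned for naming were the 10 genes in every comparison and up to 6 called pathway genes. Windows or regions within 1000 bp of a start and up to 3 others by smallest p were planned too. Not all of these are printed in the text, and the genes, windows and regions left out were not called. DESeq2 1.42.0, other filters, scalings and pseudocounts, and leaving out each library were alternatives. The genes and lists were chosen with earlier results of these data known. Results came from R 4.3.3 and Python 3.11.15. Left out were chronic RNA (8 libraries), inputs and wild-type H3K27ac.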

Additional observations from a re-analysis of the deposited data

Results flagged for a closer look

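Among 120 groups of 4 or 5 libraries, 8 held a library that stood apart from the rest of its group by Dixon's criterion, which chance gives for about 1 group in 20. In poly(A) RNA, Myl4 in knockout P1907 was the low one, at 7.57 beside 7.70 for the next knockout in the table with Cre-negative controls, and at 7.47 beside 7.61 in the table with oil controls. Mylpf in oil control P1910 was high, at 11.05 beside 10.93. In RiboTag mRNA, control RNA_11745, the shallowest library, was high for Mylpf, at 1082 CPM beside 706. The control with label number RNA_11673 and its RPF_11673 library were high for Myl4, at 27.9 CPM beside 12.8 in mRNA and at 52.1 CPM beside 25.3 in footprints. In nascent RNA, FX1 1 was low for Mylpf, at 10.73 beside 11.51, and FX1 3 was high for Mylk4, at 17.28 beside 15.88.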

How the results depend on the processing

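Of the values of single genes, regions and windows under alternatives that leave out no single library, 338 kept their direction and side of the threshold, 9 lost a call, 7 gained one and 13 turned. With 1 library left out 596 were kept, 23 lost, 8 gained and 31 turned, all 31 in values that had not passed. Without a filter on low values, calls against Cre-negative controls fell to 1387 of all genes and 5 of the 10, with Myl3, Myl4 and Myl6b lost. In RiboTag mRNA DESeq2 called 973 genes against 609 and 2 of the 10, and no filter 3 of the 10. Without the animals of the shallowest and deepest mRNA library, 235 genes were called in mRNA and 867 in footprints per mRNA, against 1480. DESeq2 split the calls in footprints per mRNA 915 higher and 1248 lower, against 437 and 1043. In nascent RNA the library total as a covariate left 2065 calls against 3267. Same-numbered nascent samples deviated together with r of -0.43 to 0.18 and share only a number; with the replicate block 1888 genes and 1 of the 10 were called, Myl1 having an adjusted p of 0.070. With the animal as a replicate block, footprints per mRNA gave 1715 calls and 0 of the 10, and the block changed no other call. A pseudocount of 5 gave 146 acute calls (1 at the genes) and 240 chronic ones, against 70 and 121, and quantile normalization 1 acute call at the genes and 299 chronic ones. Requiring an overlap of at least 0.5 of the peak left 3 of 7 peaks over acetylated regions. Values that turned: with quantile normalization Mylk2 0.083 and Mylpf 0.026 (poly(A), against Cre-negative and oil), the Mylpf window -0.055, the Myl4 region at 904 bp 0.048 (0.071 with a pseudocount of 5) and the Ppp1r12a region at 803 bp -0.013 (chronic); without the animals of the 2 mRNA libraries Mylpf 0.0091 and Ppp1r12b -0.12 (mRNA), Mylk4 -0.037 (footprints), and Myl3 -0.11, Myl2 -0.0029 and Myl6b 0.075 (footprints per mRNA); and without a filter Myl3 -0.0046. The cause was not tested. With 1 library left out, values ranged from -0.14 to 0.10 (Myl1 window at 66945074, H3K27ac), -0.074 to 0.076 (Myl3, footprints per mRNA), -0.61 to 0.83 (Myl4 region at 104577935, H3K27ac, acute), -0.14 to 0.012 (Myl4, footprints per mRNA), -0.25 to 0.15 (Myl6b, footprints per mRNA), -0.020 to 0.19 (Mylk2, RiboTag mRNA), -0.32 to 0.070 (Mylk4 region at 32782356, H3K27ac, chronic), -0.22 to 0.11 (Mylpf region at 127210635, H3K27ac, acute), -0.18 to 0.11 (Ppp1r12a region at 108162953, H3K27ac, acute), -0.21 to 0.21 (Ppp1r12a region at 108162953, H3K27ac, chronic), -0.37 to 0.033 (Ppp1r12a, RiboTag mRNA), -0.034 to 0.0068 (Ppp1r12a, poly(A) RNA), -0.0068 to 0.037 (Ppp1r12a, poly(A) RNA against oil), -0.071 to 0.20 (Ppp1r12b, RiboTag mRNA).
Counts of all calls with 1 library left out ran from 395 to 826 in RiboTag mRNA, 2293 to 3763 in footprints, 310 to 1874 in footprints per mRNA, 10 to 83 in the acute series, 0 to 400 in the chronic series and 1043 to 1635 in windows. They moved by over 1.5 times without RNA_11722, RNA_11734 or RNA_11735 in mRNA, without RPF_11721 in footprints, without any animal but those of RNA_11718 and RNA_11745 in footprints per mRNA, without imKO_6346, imKO_6349 or Ctr_6366 in the acute series, without any chronic knockout or Ctr_1801, and without P1900 or P1907 in windows. Windows at the genes went down to 1 of the 4 at the lowest. H3K27ac groups hold 3 libraries each, and the peaks have no replicate. The log2 values carry no depth of their own, and how the authors' transform compressed low values was not tested. Against oil controls the authors' deposited log2 changes were 0.85 for Myl4 and 0.90 for Myl6b, beside 0.39 and 0.52 here. Those of Myl1 and Ppp1r12b were -0.32 and -1.245, beside -0.27 and -1.39.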
